A study of Mus musculus with 8 samples.

Results

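The 10 genes of the mouse HoxB cluster, Hoxb1 to Hoxb9 and Hoxb13, were followed in Lats2-/- and Lats2+/+ mouse embryonic fibroblasts (MEFs). Members were taken by name: every gene probe of the array whose gene name is one of these 10 was used, in the order of its position on chromosome 11. This gave 15 probes for 10 genes, of 41174 gene probes with 27745 gene names in all. Lats2 encodes a kinase of the Hippo pathway, and the study asked whether its loss changes the expression of genes held silent by Polycomb repressive complex 2 (PRC2).

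MEFs are cells grown out from embryos, and the label "embryonic fibroblasts" is given to all samples. The Lats2-/- MEFs came from C57BL/6J mice and lacked both copies of Lats2, and the Lats2+/+ MEFs came from wild-type C57BL/6J littermates. Both genotypes were kept in DMEM with fetal bovine serum, with no drug or other treatment in the labels. The age of the embryos is not given in the sources used here. The clone names carry the numbers 112, 116 and 121, taken here as 3 litters, each with 1 Lats2-/- and 1 Lats2+/+ clone, so that each genotype of a litter is a single clone. RNA of both clones of a litter was hybridised together on two-colour arrays, with dyes swapped between arrays. Litters 112 and 116 had 2 arrays each and litter 121 had 4, which makes 8 arrays of 6 RNA extracts.

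Hox genes encode homeodomain transcription factors that give cells their position along the head-to-tail axis of the embryo. They lie in 4 clusters, HoxA to HoxD, and in each cluster the genes at the 3' end act in more anterior regions and the genes at the 5' end in more posterior ones. In HoxB, Hoxb1 is at the 3' end and Hoxb13, set apart by a long gap, at the 5' end. Fibroblasts keep much of the Hox pattern of the place in the body they came from. In cells that do not use a Hox gene, PRC2 marks it with methylation of lysine 27 on histone H3 and Polycomb repressive complex 1 (PRC1) binds there. Retinoic acid and factors such as Cdx proteins open the clusters during development.

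Promoter sequence was at hand for 3 of the 10 genes, from RefSeq on GRCm38.p6, and the windows are shown because Hoxb8 and Hoxb4 were seen in Lats2-/- extracts only and Hoxb1 in no extract. Each line holds the 250 bases before the start of the gene, 5′ to 3′ on the plus strand. Capitals mark matches of 3 motifs, searched on both strands. CCAAT is the box bound by the NF-Y proteins. AGGTCA is the hexamer bound by retinoic acid receptors. TGATNNAT is the site of paired Hox and Pbx proteins. No motif shares letters with another in these windows.
Hoxb8, chr11:96281655-96281904: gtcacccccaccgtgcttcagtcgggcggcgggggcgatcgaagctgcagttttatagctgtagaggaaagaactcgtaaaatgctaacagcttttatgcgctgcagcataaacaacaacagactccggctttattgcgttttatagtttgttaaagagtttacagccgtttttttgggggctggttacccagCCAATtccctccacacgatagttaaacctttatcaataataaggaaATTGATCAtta
Hoxb4, chr11:96318017-96318266: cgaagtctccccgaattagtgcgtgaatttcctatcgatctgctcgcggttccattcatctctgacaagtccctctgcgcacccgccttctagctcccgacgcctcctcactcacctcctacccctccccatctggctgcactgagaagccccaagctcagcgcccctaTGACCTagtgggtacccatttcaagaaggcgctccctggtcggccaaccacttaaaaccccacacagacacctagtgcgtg
Hoxb1, chr11:96365508-96365757: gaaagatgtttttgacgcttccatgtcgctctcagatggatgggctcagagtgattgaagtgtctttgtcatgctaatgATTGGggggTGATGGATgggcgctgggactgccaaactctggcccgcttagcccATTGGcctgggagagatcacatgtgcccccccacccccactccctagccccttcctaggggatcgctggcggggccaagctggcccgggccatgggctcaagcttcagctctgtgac

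The Hoxb8 window held 12 CpG dinucleotides, the Hoxb4 window 14 and the Hoxb1 window 7, against a median of 6 over 32851 windows of the same length. A CCAAT box was found in 33.8% of all windows, and in those of Hoxb8 and Hoxb1. The receptor hexamer was found in 14.0% of all windows, and in that of Hoxb4. The Hox-Pbx site was found in 7.68% of all windows, and in those of Hoxb8 and Hoxb1. These are matches of letters, and the data hold no measurement of binding.

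The scanner software flags probes as well above background, which held for 53.5% to 60.3% of gene probes in Lats2-/- channels and for 52.9% to 61.3% in Lats2+/+ channels. The targeted gene had 4 probes on chromosome 14, with coordinates on mm8 as for all probes below. The upstream Lats2 probe (A_52_P425064, 56676512 to 56676571) gave log2 ratios (Lats2-/- over Lats2+/+) of -1.33, -1.05 and -0.56 for litters 112, 116 and 121. The other 3 Lats2 probes were lower in Lats2-/- cells of litters 112 and 116, by log2 ratios from -0.70 to -0.18, and higher in litter 121, by 0.80 to 1.17. In litter 121, 1 of 4 probes was therefore lower in the extract labelled Lats2-/-, and every direction given for that litter rests on the label. The study also examined Lats2 protein by western blotting and Hoxb transcripts by RT-qPCR in its MEFs, and those measurements are not used here. Which exons the null allele lacks, and so which probes can check it, is not given in the sources used here. Of the 8 fibroblast markers, 8 were well above background in 5 of the 6 extracts. The exception was Pdgfra, a receptor of mesenchymal cells, in the Lats2-/- extract of litter 121. Its log2 signal was 6.30 there and between 11.14 and 13.58 in the other extracts.

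In litters 112 and 121, the signals of the HoxB genes from Hoxb9 to Hoxb3 were higher in Lats2-/- than in Lats2+/+ cells at 1 or both of their probes, while in litter 116 the genotypes were close to equal at all but the first Hoxb3 probe. Hoxb13 and Hoxb1 were at background, and over the 3 litters 0 HoxB probes passed an adjusted p of 0.05. An extract counted as showing a probe if the probe was well above background on most of its arrays. The Lats2-/- extract of litter 112 showed 11 of 15 HoxB probes, that of litter 121 showed 10, and that of litter 116 showed 1. The Lats2+/+ extracts showed 4, 2 and 4 in litters 112, 116 and 121. By gene, the Lats2-/- extracts showed 8, 1 and 7 of 10 genes in litters 112, 116 and 121, against 2, 2 and 3 in the Lats2+/+ extracts. In bulk RNA, fewer cells with a transcript and less transcript per cell cannot be told apart.

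Detection in Lats2-/- cells with no array of the wild-type extract above background was also counted in each litter. It held for 6 of 15 HoxB probes in litter 112, where 1.25% of all gene probes had this pattern. In litter 116 it held for 0 HoxB probes, against 1.08% of all. In litter 121 it held for 5 HoxB probes, against 1.45% of all. Probes of 1 gene can read the same transcripts, so they are not counted as independent.

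**Figure D1:**
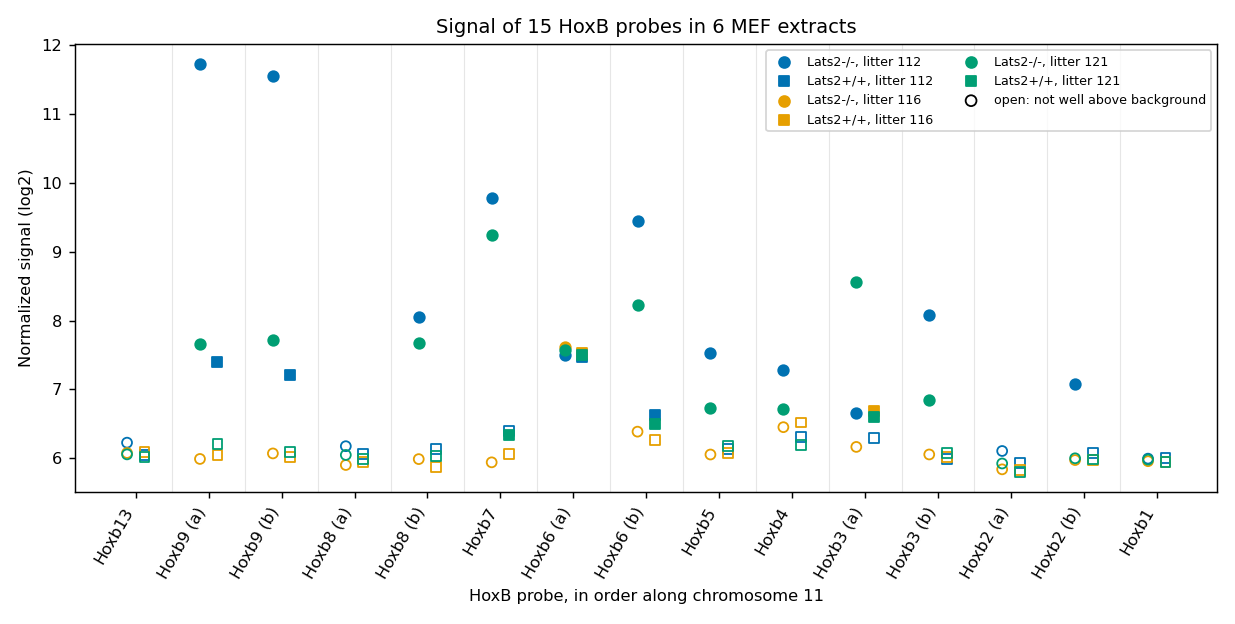
Normalized log2 signal (y axis) of the 15 HoxB probes in the order of their position (x axis), with circles for Lats2-/- and squares for Lats2+/+ extracts, 1 colour per litter; filled symbols are well above background, open symbols are not, and a and b are the probes of 1 gene in order. Filled circles of litters 112 and 121 stand above the rest at both Hoxb9 probes, the second Hoxb8 probe, Hoxb7, the second Hoxb6 probe, Hoxb5, Hoxb4 and the second Hoxb3 probe, the first Hoxb6 probe lies between 7.47 and 7.61 in all 6 extracts, and litter 116 stays near 6 except at the first Hoxb6 probe, the second Hoxb6 probe, Hoxb4 and the first Hoxb3 probe.

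Hoxb13, the most posterior member, was seen in no extract. Its probe (A_51_P290202, 96012144 to 96012203) had log2 signals of 6.23, 6.08 and 6.06 in Lats2-/- extracts of litters 112, 116 and 121, and of 6.05, 6.09 and 6.02 in Lats2+/+ extracts. Both genotypes were therefore at background and no fold is given.

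Hoxb9, a gene of thoracic and more posterior levels, was far higher in Lats2-/- cells of litter 112, at both of its probes. The first probe (A_52_P98462, 96091841 to 96091900) had log2 signals of 11.72, 5.99 and 7.65 in Lats2-/- extracts of litters 112, 116 and 121. In the Lats2+/+ extracts it had 7.40, 6.05 and 6.21. The Lats2-/- extract of litter 112 stood far above every other, that of litter 121 came next, and that of litter 116 lay below all 3 wild-type extracts, with both genotypes of that litter at background.

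In litter 112 this Hoxb9 probe was well above background in both genotypes, and the log2 ratio of 4.32 is a 19.9-fold difference. In litter 121 it was above background on 4 of 4 arrays in Lats2-/- and on 1 of 4 in Lats2+/+, with a log2 ratio of 1.45. The second Hoxb9 probe (A_52_P973575, 96092524 to 96092583) gave log2 ratios of 4.34, 0.05 and 1.62. Its litter 121 value corresponds to at least 3.04-fold, because the wild-type extract was above background on no array and only a bound can be given. The 2 Hoxb9 probes thus gave the same order of litters.

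Hoxb8 was seen in Lats2-/- extracts alone, by its second probe (A_51_P402686, 96101232 to 96101291). The log2 signals were 8.05, 5.99 and 7.67 in Lats2-/- extracts of litters 112, 116 and 121, and 6.14, 5.88 and 6.03 in Lats2+/+ extracts. It was above background on 6 of 8 arrays in Lats2-/- and on 0 of 8 in Lats2+/+. The difference was at least 3.55-fold in litter 112 and at least 2.99-fold in litter 121. The first Hoxb8 probe (A_52_P312043, 96098668 to 96098727) was above background on no array, with log2 ratios of 0.12, -0.05 and 0.05, so that the probes of this gene differ and the call rests on the second.

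Hoxb7 was high in 2 Lats2-/- extracts. Its probe (A_52_P194971, 96105987 to 96106046) had log2 signals of 9.78, 5.94 and 9.24 in Lats2-/- extracts of litters 112, 116 and 121, and of 6.40, 6.06 and 6.34 in Lats2+/+ extracts. The log2 ratios were 3.38, -0.12 and 2.89. Litter 121, with 3 of 4 wild-type arrays above background, had a 7.44-fold difference. In litter 112 the wild-type extract was above background on 1 of 2 arrays.

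Hoxb6 has 2 probes that did not give the same result. The second (A_51_P232207, 96117339 to 96117398) had log2 signals of 9.44, 6.39 and 8.23 in Lats2-/- extracts and of 6.63, 6.27 and 6.50 in Lats2+/+ extracts of litters 112, 116 and 121. The log2 ratios were 2.82, 0.12 and 1.73, or 7.05-fold in litter 112 and 3.32-fold in litter 121. The first probe (A_52_P648750, 96115057 to 96115116), which is assigned to another Hoxb6 transcript record than the second, had log2 signals between 7.47 and 7.61 in all 6 extracts and was above background on every array. Its log2 ratios were 0.03, 0.09 and 0.08, so that it showed neither the genotype nor the litter. RefSeq also places an antisense transcript, Hoxb5os, over Hoxb6 and Hoxb5, and which transcript the first probe reads was not tested.

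Hoxb5 and Hoxb4, in the middle of the cluster, were brightest in the Lats2-/- extract of litter 112 and next in that of litter 121. The Hoxb5 probe (A_51_P436342, 96121906 to 96121965) had log2 signals of 7.54, 6.06 and 6.73 in Lats2-/- extracts and of 6.13, 6.07 and 6.18 in Lats2+/+ extracts. It was above background in no wild-type extract, and the difference was at least 2.48-fold in litter 112 and at least 1.47-fold in litter 121. The Hoxb4 probe (A_52_P565957, 96136297 to 96136356) had log2 signals of 7.29, 6.45 and 6.71 in Lats2-/- extracts and of 6.31, 6.52 and 6.20 in Lats2+/+ extracts. Its difference was at least 1.97-fold in litter 112 and at least 1.43-fold in litter 121. In litter 116 it was above background on 1 of 2 arrays in each genotype.

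Hoxb3 differed in sign between litters at one probe. Its first probe (A_51_P460643, 96161890 to 96161949) had log2 signals of 6.66, 6.17 and 8.56 in Lats2-/- extracts of litters 112, 116 and 121, and of 6.29, 6.69 and 6.59 in Lats2+/+ extracts. It was at least 1.44-fold lower in Lats2-/- cells of litter 116, where it was above background in wild-type cells alone. In litter 121, where both genotypes were above background, it was 3.91-fold higher in Lats2-/- cells.

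The second Hoxb3 probe (A_52_P312467, 96163778 to 96163837) is assigned to the other RefSeq transcript record of the gene. It had log2 ratios of 2.09, 0.04 and 0.77, and was above background in no wild-type extract. Its difference was at least 3.64-fold in litter 112 and at least 1.67-fold in litter 121. In Lats2-/- extracts the first probe was therefore brightest in litter 121 and the second in litter 112. The Hoxb3 gene also spans Hoxb4 in RefSeq, so the 2 genes overlap.

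Hoxb2, a hindbrain gene of the anterior end, was seen in 1 extract. Its second probe (A_52_P15300, 96169898 to 96169957) had log2 signals of 7.08, 5.98 and 6.00 in Lats2-/- extracts and of 6.08, 5.97 and 5.98 in Lats2+/+ extracts, and was at least 1.86-fold higher in Lats2-/- cells of litter 112. In the other litters it was above background in neither genotype. The first Hoxb2 probe (A_51_P257789, 96166636 to 96166695) lies on the strand opposite to all other HoxB probes and was above background on no array.

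Hoxb1, the most anterior member, was seen in no extract. Its probe (A_51_P485014, 96183226 to 96183286), printed in 10 spots per array, had log2 signals between 5.95 and 6.00. The genes at the ends of the cluster, Hoxb13 and Hoxb1, were thus at background in both genotypes, and the members seen lay between them.

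**Figure D2:**
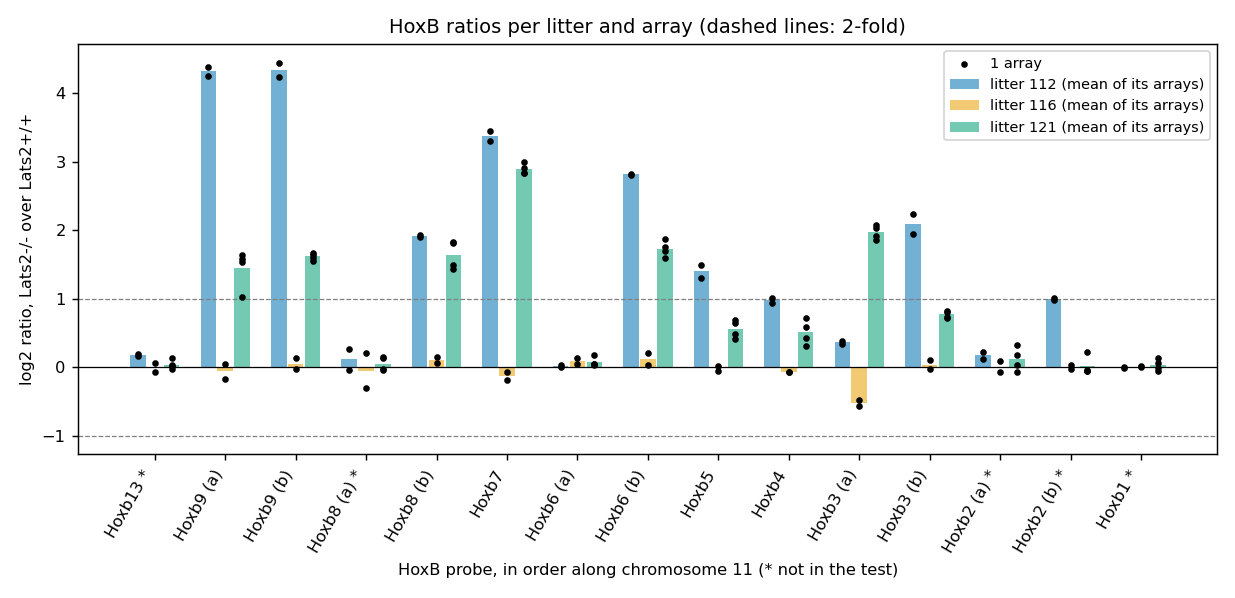
log2 ratio of Lats2-/- over Lats2+/+ (y axis) of the 15 HoxB probes in order (x axis), with a bar from 0 for the mean of the arrays of each litter and a black point for each array; stars mark probes left out of the test for low signal, and dashed lines mark 2-fold. At probes with a bar past 2-fold the arrays of a litter lie closer together than the litters do, all bars are near 0 at Hoxb13, Hoxb1 and the first probes of Hoxb8, Hoxb6 and Hoxb2, and bars of litter 116 lie between -0.53 and 0.12.

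Dye-swapped arrays of a litter gave nearly the same ratio. For the 10 HoxB probes that entered the test, the range over the arrays of a litter had a median of 0.14 log2 units and reached 0.61, at the first Hoxb9 probe in litter 121. The range over the 3 litter ratios had a median of 2.27 and reached 4.38. The first range is over repeat hybridisations of the same extracts and the second over different extracts. Whether this spread lies between litters, clones or cultures cannot be told apart, since each genotype of a litter is 1 extract.

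A probe entered the test if, in either genotype, 2 or 3 of the extracts showed it. This left 10 HoxB probes of 7 genes (Hoxb3 to Hoxb9), of 22642 probes in all. Of these 10 probes, 7 passed through their Lats2-/- extracts alone, since fewer than 2 of the Lats2+/+ extracts showed them, so a higher value in Lats2-/- cells was part of how they were chosen. Counts and medians over the 10 probes, also litter by litter, describe them and do not speak for all 15. Their mean log2 ratios had a median of 1.09 against 0.01 over all probes in the test. By litter, the HoxB median of litter 112 was 2.004, that of litter 116 was 0.01 and that of litter 121 was 1.53. The SD over litters had a median of 1.15 for HoxB probes and 0.25 for all probes.

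With limma and Benjamini-Hochberg adjustment over all 22642 probes, 0 HoxB probes passed an adjusted p of 0.05, as did 0 probes overall (0%). Adjusted p-values of the HoxB probes lay between 0.711 and 0.906, and the smallest of all probes was 0.634. At an unadjusted p under 0.05, 1 of 10 HoxB probes was higher in Lats2-/- cells, against 3.56% of all probes. With the fold threshold of the study added, at least 2-fold with a limma p under 0.05, the count was also 1 of 10, against 0.636% of all. With the methods' t-test in place of limma it was 0 of 10, against 0.247% of all. The probe called by limma was the second Hoxb8 probe, whose log2 ratio averaged 1.22 ± 0.97 (SD over 3 litters; limma adjusted p = 0.711). It was higher in 2 of 3 litters, and in litter 116 it was at background in both genotypes, so that no direction is given there.

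Next in order of p were the second Hoxb6 probe (A_51_P232207), whose log2 ratio averaged 1.56 ± 1.36 (SD over 3 litters; limma adjusted p = 0.711), and Hoxb7, with 2.05 ± 1.90 (limma adjusted p = 0.714). Hoxb9 had means of 1.90 ± 2.22 and 2.004 ± 2.17 at its 2 probes, with limma adjusted p-values of 0.737 and 0.726. The second Hoxb3 probe had 0.97 ± 1.04, Hoxb5 0.65 ± 0.71, the first Hoxb3 probe 0.60 ± 1.26 and Hoxb4 0.47 ± 0.52. The SD over litters was larger than the mean for 6 of the 10 probes, both of Hoxb9, both of Hoxb3, Hoxb5 and Hoxb4, and smaller for Hoxb8, Hoxb7 and both Hoxb6 probes.

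The size of these ratios changed with the processing, and the cause was not tested. In the deposited value table, the mean log2 ratio was 3.63 for Hoxb8 (A_51_P402686), 3.44 for Hoxb7 and 2.66 for the second Hoxb6 probe, and the median over the 10 HoxB probes was 2.81. With the unprocessed intensities and a smaller normexp offset of 16, that median was 1.65. Without litter 116, 8 of the 10 HoxB probes had an unadjusted limma p under 0.05, against 5.53% of all probes. Yet 7 of the 10 had entered the test only through the Lats2-/- extracts of litters 112 and 121. The count without litter 116 repeats that choice in part and is no support. The count was 0 without litter 112 (5.06% of all probes) and 0 without litter 121 (6.43%). The direction of the first Hoxb3 probe rests on litter 121, without which its mean log2 ratio was -0.08.

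Litter by litter, a difference of at least 2-fold toward Lats2-/- was found for 7 of the 10 HoxB probes in litter 112, against 2.54% of all probes in the test. In litter 116 it was found for 0, against 4.59%, and in litter 121 for 6, against 3.38%. The pattern of at least 2-fold in both litters 112 and 121 with less than 2-fold in litter 116 held for 5 HoxB probes, those of Hoxb9, Hoxb8, Hoxb7 and the second of Hoxb6, against 0.314% of all. These values have no test, and the last pattern was written down after the litters had been seen. For 7 of the 10 probes, detection in the Lats2-/- extracts of litters 112 and 121 was how they entered the test. The HoxB counts in these litters follow in part from that choice and stand beside the shares of all probes as a description.

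**Figure D3:**
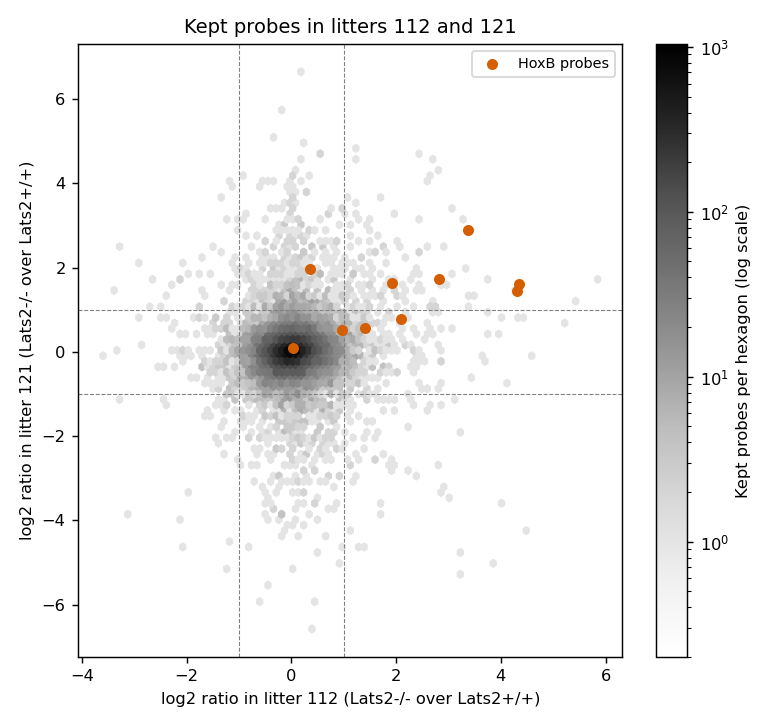
log2 ratio (Lats2-/- over Lats2+/+) in litter 112 (x axis) and in litter 121 (y axis), with grey hexagons for the number of the 22642 probes in the test and orange points for the 10 HoxB probes; dashed lines mark 2-fold. There are 5 HoxB points past 2-fold on both axes, where few grey hexagons lie. Of the 10 HoxB probes, 7 entered the test through the Lats2-/- extracts of these litters alone.

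Slide and litter are tied, since litters 112 and 116 were on slide 1 and litter 121 on slide 2. Within slide 1, the HoxB median was 2.004 in one litter and 0.01 in the other, so the difference between these litters is within a slide. On slide 2 there is 1 litter, and its slide and litter cannot be told apart.

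Along the cluster, log2 ratios in litter 112 were 4.32 and 4.34 at Hoxb9, 0.12 and 1.92 at Hoxb8, 3.38 at Hoxb7, 0.03 and 2.82 at Hoxb6, 1.40 at Hoxb5, 0.97 at Hoxb4 and 0.36 and 2.09 at Hoxb3. In litter 121 they were 1.45 and 1.62 at Hoxb9, 0.05 and 1.64 at Hoxb8, 2.89 at Hoxb7, 0.08 and 1.73 at Hoxb6, 0.56 at Hoxb5, 0.51 at Hoxb4 and 1.97 and 0.77 at Hoxb3. Where wild-type cells were at background, a ratio also depends on how far the signal stood above it, so the probes are not ranked by it.

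Genes on both sides of the cluster had ratios near 0 on the median. Probes of 27 other gene names lie within 500 kb of the outermost HoxB probes or between them, and 14 of these had a probe in the test. Their median log2 ratio was -0.02, and 0 of 14 had an unadjusted limma p under 0.05 (0 adjusted), where 7.50% of all genes did in either direction. In litter 112 the 22 neighbouring probes in the test had log2 ratios from -0.48 to 1.07, in litter 116 from -0.55 to 0.55 and in litter 121 from -0.44 to 0.24. One of them (A_51_P230904) was at least 2-fold higher in Lats2-/- cells of litter 112, for Copz2, a coat protein subunit (log2 ratios of 1.07, 0.55 and -0.03; limma adjusted p = 0.727). The other Copz2 probe in the test (A_52_P180310) had -0.35, 0.39 and -0.22, so that the probes of this gene differed in sign in litter 112. Atp5g1, an ATP synthase subunit, had -0.09, -0.37 and -0.37 (adjusted p = 0.719). Ttll6, a tubulin glutamylase and the nearest tested neighbour beyond Hoxb13, had -0.09, 0.04 and 0.04. A probe between Hoxb4 and Hoxb3 on the opposite strand, which names no known gene, was above background in no extract.

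**Figure D4:**
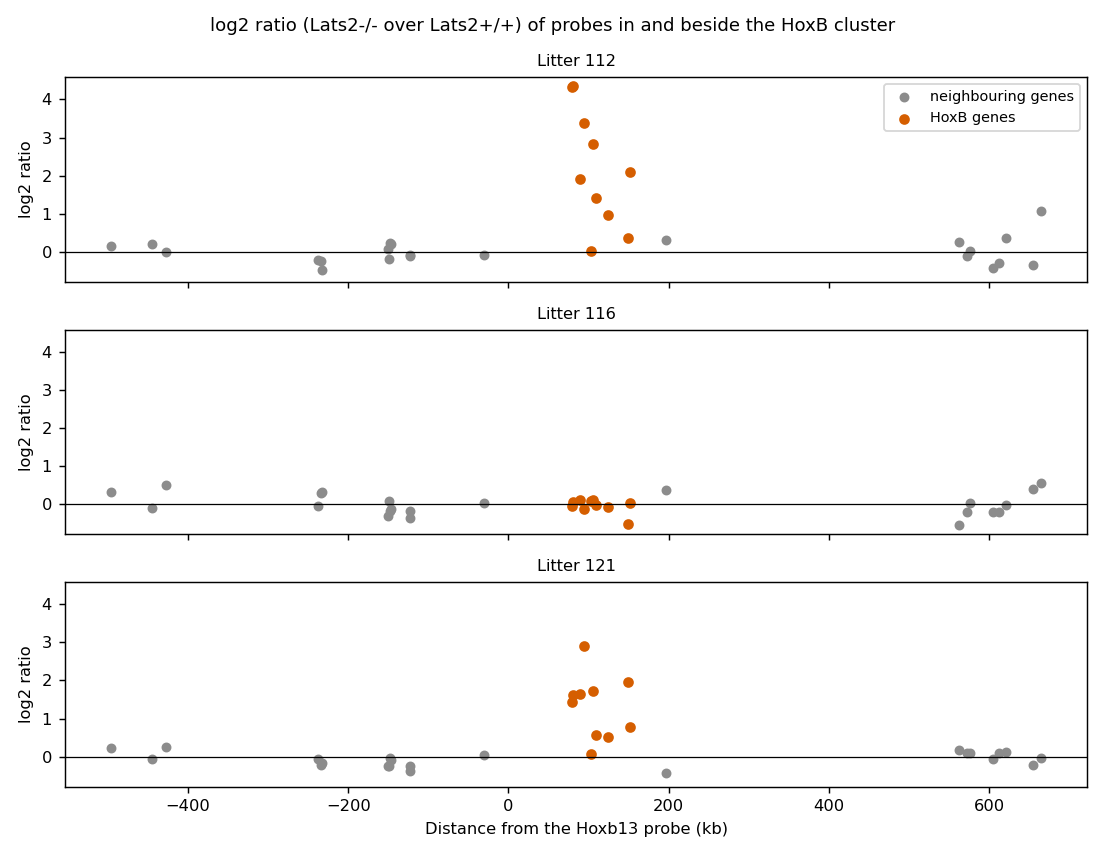
log2 ratio (Lats2-/- over Lats2+/+, y axis) of the tested probes against their distance from the Hoxb13 probe in kb (x axis), with 1 panel per litter, HoxB probes in orange and probes of neighbouring genes in grey. In litter 112, 7 of the 10 orange points lie above every grey one. The exceptions are the first Hoxb6 probe, Hoxb4 and the first Hoxb3 probe. In litter 121, 9 do, all but the first Hoxb6 probe, and in litter 116, 0 do. Since 7 of the 10 HoxB probes entered the test through Lats2-/- extracts of litters 112 and 121 alone, their height there follows in part from that choice. HoxB probes left out of the test are not drawn.

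The other Hox clusters showed other patterns over the extracts. HoxA genes well above background numbered 3, 3 and 6 of 11 in Lats2-/- extracts of litters 112, 116 and 121, and 2, 2 and 3 in Lats2+/+ extracts. For HoxC it was 1 of 8 in every extract. HoxD genes numbered 0, 4 and 0 of 9 in Lats2-/- extracts and 0, 0 and 3 in Lats2+/+ extracts, so that the Lats2-/- extract of litter 116 showed 4 HoxD genes and 1 HoxB gene, Hoxb6. Hoxd8, chosen after its values were seen, had log2 signals of 5.88, 8.67 and 5.90 in Lats2-/- extracts of litters 112, 116 and 121 and of 5.84, 6.05 and 7.69 in Lats2+/+ extracts. Hoxd4, chosen likewise, had 6.00, 8.48 and 6.04 against 5.98, 6.24 and 7.57. Each was shown only by the extracts with its highest and second highest signal.

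Of 28 Hox genes outside HoxB with a probe, 4 were in the test, with a median of 0.38 and 0 at an unadjusted p under 0.05, a count too small to read against the 7.50% of all genes. Hoxa7 had log2 ratios of 0.06, 0.22 and 1.63 (limma adjusted p = 0.758), highest in litter 121.

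**Figure D5:**
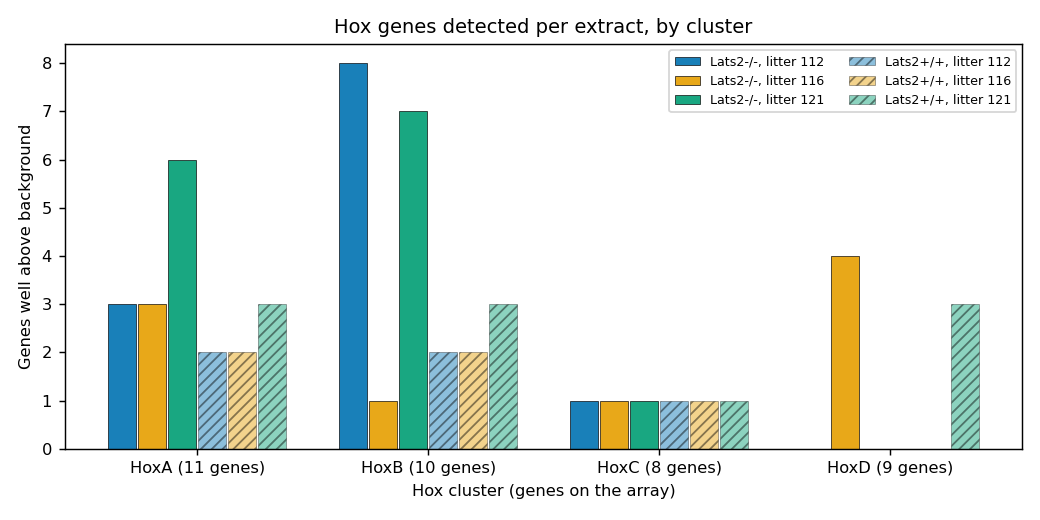
Number of Hox genes well above background (y axis, from 0) in each of the 6 extracts, by Hox cluster (x axis), with plain bars for Lats2-/- and hatched bars for Lats2+/+ and 1 colour per litter. HoxB bars reach 8 and 7 in Lats2-/- extracts of litters 112 and 121, and HoxD bars are above 0 in the Lats2-/- extract of litter 116 and the Lats2+/+ extract of litter 121 only.

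The Polycomb genes that act on Hox clusters were nearly all measured, with ratios near 0 on the median. Of 30 Polycomb genes, 29 were in the test, with a median log2 ratio of -0.03, and 2 were higher and 1 lower at an unadjusted limma p under 0.05 (0 adjusted), where 7.50% of all genes passed in either direction. Ezh2, the methyltransferase of PRC2, gave log2 ratios of -0.46, -0.93 and 0.69 in litters 112, 116 and 121 (limma adjusted p = 0.911). Eed, the subunit that reads the mark, had -0.46, 0.08 and 0.30. Suz12, the scaffold of PRC2, had -0.50, -0.39 and -0.06 at one probe and -0.57, -0.46 and -0.09 at the other. The genes past the unadjusted p were Phf1 and Phf19, accessory subunits of PRC2, and Phc1, a PRC1 subunit. Phf1 averaged 0.59 ± 0.20 (SD over 3 litters; limma adjusted p = 0.711), Phf19 -0.71 ± 0.31 (limma adjusted p = 0.711) and Phc1 0.28 ± 0.02 (limma adjusted p = 0.711).

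Of 12 trithorax genes and demethylases of the same histone mark, 11 were in the test, with a median of -0.08. Of these, 1 was higher at an unadjusted p under 0.05 (0 adjusted), where 4.09% of all genes were. This was Kdm6b, which removes methylation of lysine 27, with log2 ratios of 0.57, 0.47 and 0.19 (limma adjusted p = 0.711). Kmt2a, the methyltransferase that keeps Hox genes active, had -0.33, -0.40 and -0.08 (adjusted p = 0.724).

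Regulators of Hoxb transcription and of retinoic acid numbered 22 with a probe and 15 in the test, with a median of 0.14. Of these, 2 were higher at an unadjusted p under 0.05 (0 adjusted), against 4.09% of all genes. Egr2, known to drive Hoxb2 in the hindbrain, had log2 signals of 14.47, 10.99 and 10.33 in Lats2-/- extracts of litters 112, 116 and 121, and of 8.62, 6.70 and 8.65 in Lats2+/+ extracts. Its log2 ratio averaged 3.94 ± 2.11 (SD over 3 litters; limma adjusted p = 0.711). It was higher in all 3 litters, while Hoxb2 was seen in the Lats2-/- extract of litter 112 alone. Rxra, the common partner of retinoic acid receptors, had 0.33 ± 0.07 (limma adjusted p = 0.711). Aldh1a1, which makes retinoic acid, had 0.39, 1.11 and 4.19 (adjusted p = 0.726). Cdx1, Cdx2 and Cdx4, which open the clusters in the embryo, were above background in no extract.

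Among the TALE proteins, which bind DNA together with Hox proteins, 11 of 11 genes were in the test, with a median of 0.10 and 0 at an unadjusted p under 0.05. Over all genes, 7.50% passed in either direction, and 0 of 11 is too small a count to read against that share. Tgif2 had log2 ratios of -0.72, -1.46 and 1.23 (limma adjusted p = 0.926) and Meis3 of 0.52, 0.28 and -0.02 (adjusted p = 0.754).

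Genes that mark regions of the embryonic mesenchyme also differed between litters. Of 26 with a probe, 11 were in the test, with a median of 0.04 and 0 at an unadjusted p under 0.05. Over all genes, 7.50% passed in either direction, and 0 of 11 is too small a count to read against that share. Dlx2, a gene of the branchial arches and forebrain, had log2 ratios of 0.19, -3.90 and -1.10 (limma adjusted p = 0.754). Meox1, a somite gene that no Lats2+/+ extract showed, had 0.63, 2.68 and -0.08 (adjusted p = 0.754). Dlx2 had the litter order of the HoxB medians, 112 above 121 above 116, but was lower in Lats2-/- cells of litters 116 and 121. Meox1, highest in litter 116, did not have that order.

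Markers of other cell types were read beside the HoxB values. Krt19, a keratin of epithelia and mesothelium, was highest in the same 2 extracts as HoxB. Its log2 signals were 8.67, 6.40 and 8.77 in Lats2-/- extracts of litters 112, 116 and 121 and 6.25, 6.02 and 6.94 in Lats2+/+ extracts (log2 ratio 1.54 ± 1.05, SD over 3 litters; limma adjusted p = 0.711). It was 1 of 5 epithelial markers, and 1 of 5 was in the test. Epcam was above background in no extract, Cdh1 only in the Lats2-/- extract of litter 121, and Krt8 and Krt18 only in the Lats2+/+ extract of litter 116. The summed linear signal of the 5 markers lay between 353 and 781 in Lats2-/- and between 346 and 390 in Lats2+/+ extracts. The part of such cells in the HoxB values was not tested.

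The Lats2-/- extract of litter 121 also stood apart for other cell types. The summed signal of 6 neural markers lay between 1043 and 7819 in Lats2-/- extracts and between 947 and 2130 in Lats2+/+ extracts, with the highest in that extract through Nes (log2 ratios of -0.36, 0.77 and 4.10). Sox2 and Gfap were above background in no extract, and Map2 had log2 ratios of -2.03, 1.03 and -0.09. For 6 blood and macrophage markers the sum lay between 568 and 3819 in Lats2-/- extracts and between 529 and 693 in Lats2+/+ extracts, again with the highest in that extract, through Lyz2 (0.05, 0.95 and 3.40), while Ptprc, Adgre1 and Itgam were above background in no extract. Csf1r had 0.04, 0.30 and -0.08. Endothelial sums lay between 345 and 398 against 341 and 360, with Tek at 0.00, 0.02 and 0.16. Pecam1, Cdh5 and Emcn were above background in no extract, while Kdr was seen only in litter 121, in its Lats2-/- cells. Of 4 skeletal muscle markers, 0 were above background in any extract, with sums between 269 and 271 against 267 and 270. Fibroblast sums lay between 212517 and 437756 in Lats2-/- and between 186697 and 398932 in Lats2+/+ extracts. Of the 8 fibroblast markers, 5, 7 and 1 were higher in Lats2-/- cells of litters 112, 116 and 121, with median log2 ratios of 0.10, 1.95 and -0.93. Most of them were thus higher in litter 116, where HoxB ratios were near 0, and lower in litter 121. Col3a1 had 0.13, 3.70 and -3.42, Thy1 -0.38, 2.05 and -3.66, Col1a1 -0.50, 2.75 and -1.13, Fn1 0.36, 2.40 and 0.07, and Pdgfra 0.90, 0.13 and -4.96. The part of these differences in the HoxB values was not tested in any litter.

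The pattern over the 6 extracts was also compared between HoxB probes. The mean log2 signal of the 11 HoxB probes seen in any extract was 8.61, 6.25 and 7.54 in Lats2-/- extracts of litters 112, 116 and 121, and 6.55, 6.28 and 6.34 in Lats2+/+ extracts. Set against the mean of the other seen probes, Pearson's r over the 6 extracts was 0.995 for the second Hoxb6 probe, 0.99 for Hoxb5, 0.98 for the second Hoxb3 probe, 0.96 for Hoxb8, 0.95 for Hoxb7, 0.94 and 0.92 for Hoxb9, 0.92 for Hoxb4 and 0.85 for Hoxb2. It was 0.32 for the first Hoxb3 probe and -0.16 for the first Hoxb6 probe. These values describe 6 extracts that share arrays in pairs. The 11 probes were chosen for being seen in an extract, most of them in the Lats2-/- extracts of litters 112 and 121, so a high r was largely set by that choice and is no finding.

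Genes outside the cluster with the most similar pattern were sought among 4126 probes in the test whose log2 signals had an SD of at least 0.5 over the extracts. The 5 genes with the highest r were Cys1 (0.98), a protein of primary cilia; Atp2c1 (0.97), a Golgi calcium pump; Sema3e (0.97), an axon guidance ligand; Pparg (0.96), the regulator of fat cell formation; and Wnt4 (0.96), a secreted signal. Pparg had log2 signals of 10.63, 6.90 and 8.97 in Lats2-/- extracts of litters 112, 116 and 121 and of 7.97, 7.16 and 8.06 in Lats2+/+ extracts. Wnt4 had 8.28, 6.15 and 7.34 against 6.98, 6.08 and 6.44.

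The 5 with the lowest r were 2 probes that name no known gene (TC1686295 with -0.98 and NAP030437-1 with -0.94), Adcy7 (-0.92), an adenylate cyclase, Gm2a (-0.89), a lysosomal activator protein, and Myo1d (-0.88), an unconventional myosin. Adcy7 had log2 signals of 6.87, 13.08 and 7.48 in Lats2-/- extracts and of 9.98, 11.54 and 11.39 in Lats2+/+ extracts. All 10 names are the extremes of 4126 probes over 6 points and are given as a description.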

How the data were processed

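RNA of Lats2-/- and Lats2+/+ MEFs was compared on 8 two-colour Agilent arrays. The authors extracted the scans with Agilent Feature Extraction, 10.7.3.1 per the file headers and 10.5.1.1 per the labels. The deposited scanner files give mean and background intensity per spot on a linear scale, with detection flags, and log10 ratios of red over green. The authors' value table holds log10 ratios, which compared with the scanner ratios are Lats2-/- over Lats2+/+ on every array (median 0 per array, largest difference 0.00500). Its exact further processing is not given in the sources used here.

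Intensities were corrected with normexp (offset 50) and normalized by loess in limma 3.58.1 (R 4.3.3). Control and outlier spots were left out (860 gene spots over 8 arrays, 0 of the HoxB probes), and repeat spots and then arrays were averaged into 1 log2 ratio per litter. Log2 signals per extract were taken after Aquantile scaling, and sums of markers are on the linear scale. The arrays of a litter share 2 extracts, so n is 3 litters, paired through the clone numbers in the labels and the study's littermate controls. The litter ratios were tested against 0 with lmFit and eBayes, two-sided, with Benjamini-Hochberg adjustment. The labels do not say that clones were cultured separately more than once, so p-values measure the spread between these clones. The number of litters limits precision, since the arrays of a litter repeat the same extracts.

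A probe not well above background on any array of an extract has only a bound. For it, each array's dim value was raised to that array's detection floor (its dimmest probe flagged well above background) where it lay below, and the fold of the brighter genotype over the array mean was taken. Ratios of other genes are printed as measured, and for Pdgfra, Meox1, Csf1r, Hoxa7, Meis3, Krt19, Tek and Ttll6 at least 1 extract was not above background, so that a ratio there is no exact size. For lists, the kept probe with the highest mean signal stood for a gene. Of other lists, the genes named are those with an unadjusted p under 0.05 and the 2 with the largest mean, beside Lats2, Ezh2, Eed and Suz12. Hoxd4, Hoxd8, Ttll6, Col1a1, Col3a1 and Thy1, and markers given by detection alone, lie outside this rule and were chosen with their values known. One gene that this rule names is not reported here. The members, lists and rules were chosen with earlier results of these data known. The fit was tested on simulated data. Alternatives concerned the offset, the processed signals, the value table, the filter, dye orientation, the slide, the pairing, the test and each litter.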

Additional observations from a re-analysis of the deposited data

How the results depend on the processing

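The number of litters and the dimness of most HoxB probes in wild-type cells limit every size given. The median of the mean log2 ratio over the HoxB probes, 1.09, was 2.82 with the processed signals of Feature Extraction, 2.81 with the deposited value table, 0.60 with no filter (15 probes) and 0.06 with the strict filter, which left 1 HoxB probe; it lay between 0.71 and 1.60 when each litter was left out. The adjusted count was 0 HoxB probes under every alternative. The count at an unadjusted p under 0.05, 1 probe, was 2 with an offset of 16, 4 with the processed signals, 4 with the value table, 2 with Lats2-/- as Cy5 only, 4 with the slide as a random block over arrays (where 17.8% of all probes passed, 717 of them also adjusted, against 6.84% and 0 in the fit over litters), and 0 with no filter, with the strict filter, without the pairing (no replicate block) and by the methods' t-test. Apart from the slide block, between 2.45% and 8.01% of all probes passed under these settings. At 2-fold and p under 0.05 these counts were 2, 4, 4, 2, 3, 0, 0, 0 and 0. Over all probes, 211, 336, 335, 170, 294, 120, 113, 81 and 56 were higher past both thresholds, against 144 in the main fit. Each fit held 22642 probes, but 41174 with no filter and 19449 with the strict filter. When each litter was left out, the counts lay between 0 and 8 and between 0 and 6, with the highest without litter 116. Over all probes, 216, 194 and 259 were higher past both thresholds without litters 112, 116 and 121. Most HoxB probes in the test had entered it through the Lats2-/- extracts of litters 112 and 121. The mean of the first Hoxb3 probe (A_51_P460643) was reversed without litter 121, to -0.081, and was 1.17 without litter 116. The slide block could not be fitted over 3 litter ratios, and the block over arrays, chosen after seeing the data, counts arrays of 1 extract as separate. The cause of these changes was not tested, except that the strict filter tested fewer probes.

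Probes seen per extract depended on the detection rule. With Lats2-/- as Cy5 only, the Lats2-/- extract of litter 116 showed 3 HoxB probes and the Lats2+/+ extract of litter 121 showed 2. With the flag for significance over local background, the Lats2+/+ extracts of litters 112, 116 and 121 showed 8, 4 and 7 and the Lats2-/- extract of litter 116 showed 4. When every array had to be above background, the Lats2+/+ extract of litter 121 showed 2.

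Medians of the other lists also moved, some across 0. Other Hox genes, with 0.38, had 0.84 with the processed signals and with the value table, 0.017 with no filter, 0.060 with the strict filter, and between 0.14 (without litter 121) and 0.51 when each litter was left out. With the processed signals and the value table, neighbours had -0.11 and -0.11, and trithorax genes -0.14 and -0.14. Trithorax genes had -0.10 with an offset of 16, -0.051 with no filter, -0.028 and -0.060 with Lats2-/- as Cy5 and as Cy3 only, -0.094 with the first dye-swap pair of litter 121, and between -0.083 and -0.037 when each litter was left out. Polycomb genes had 0.046 and -0.13 with Lats2-/- as Cy5 and as Cy3 only, 0.038 with the slide block, and between -0.14 and 0.072 when each litter was left out. TALE genes had 0.21 with Lats2-/- as Cy5 only, and between -0.027 and 0.10 when each litter was left out. Regional mesenchyme markers, with 0.04, had 0.37 without litter 112 and -0.17 without litter 116. Counts at an unadjusted p under 0.05 moved as well when each litter was left out: 3 Polycomb genes became 0 without litter 112, 1 without litter 116 and 5 without litter 121, 2 regulators became 1, 0 and 1, and 1 trithorax gene became 0, 0 and 1. Of all probes in the test, 5.06%, 5.53% and 6.43% passed that p without litters 112, 116 and 121.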
